A study of Homo sapiens with 6 samples.

Results

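Antimicrobial proteins encoded outside the epidermal differentiation complex, the gene cluster on chromosome 1 that holds the S100A genes, were followed in HaCaT keratinocytes treated with dacomitinib. The 10 genes were chosen by name from the 58735 genes of the deposited table, and all 10 were found there. They are LCN2, the protease inhibitors SLPI and PI3, the ribonuclease RNASE7, the beta-defensins DEFB1, DEFB4A and DEFB103A, the cathelicidin CAMP, the lysozyme LYZ, and S100P, a calcium-binding protein whose gene lies on chromosome 4 and so outside that cluster. HaCaT is a spontaneously immortalised human keratinocyte line, and dacomitinib irreversibly inhibits the kinase of EGFR and its relatives. RNA of 3 control and 3 treated samples was sequenced. Both groups were wild type per the labels and differed in the drug, given for 48 h to cells at 70% confluence. The design text attaches 0.1% DMSO to the experimental group, and neither the controls' vehicle nor the drug's dose is given in the sources used here. HaCaT is a single line, and no label says whether a group's samples came from different cultures, so the spread behind each p may be purely technical.

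Keratinocytes secrete antimicrobial proteins at the skin surface, where these proteins kill microbes, withhold iron from them or block proteases. Some are made constantly, and others are induced when cytokines or microbial products signal through NF-kB, C/EBP and STAT factors. Rashes with altered skin defence are a known side effect of drugs that inhibit EGFR.

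Of the 10 genes, LCN2, SLPI and RNASE7 were higher with dacomitinib, DEFB1 was measured but did not pass the test, PI3, S100P and LYZ were near the detection limit, and DEFB4A, DEFB103A and CAMP were listed at 0 in all 6 libraries. LCN2 stood at 63.8 ± 6.30 FPKM in controls and 299.8 ± 20.6 FPKM with the drug (SD, n = 3). FPKM scale fragments by gene length and library size, so levels can be compared between genes. Each log2 difference below is treated minus untreated in log2(FPKM + 1), a scale that understates the change of weakly expressed genes, and was tested with limma over the 13748 genes with a mean of at least 1 FPKM in the 6 libraries. Genes with an adjusted p (Benjamini-Hochberg) of at most 0.05 were called. Of the 4 members tested, 3 were called higher and 0 lower, where 60.2% of all tested genes were called, 25.4% higher and 34.8% lower. The 3 called members were also those whose groups did not overlap, as 28.9% of tested genes did in that direction. Of these, RNASE7 reached a mean of 1 FPKM through the treated group alone, so it had to differ to be tested. The counts and the median that include it are a description only. With TPM in place of the deposited scaling the members' counts were again 3 and 0, against 61.8% of all genes called, 42% higher and 19.8% lower. The median difference was 1.10 over the 4 members and -0.06 over all tested genes, and 1.71 and 0.23 with TPM. No label explains the letter on the 3 treated columns, which were taken as the dacomitinib samples because no other columns remained, and every direction given here rests on that.

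The stretches before the start sites of LCN2 and RNASE7, which rose, are shown beside those of CAMP, which was at 0, and S100P, which stayed near the detection limit, so that their letters can be compared. Windows before RefSeq start sites (GRCh38.p14) were taken for these 4 of the 10 members. The beta-defensin genes were left out of the search, and the promoter set used held no entry for SLPI, PI3 and LYZ. Each run gives the 250 bases before the RefSeq start site, 5′ to 3′ on the gene's strand, and all 4 genes lie on the plus strand. The windows are chr9:128149203-128149452 for LCN2, chr14:21042112-21042361 for RNASE7, chr3:48223245-48223494 for CAMP and chr4:6693628-6693877 for S100P. Capitals mark matches, on either strand, to 7 motifs. They are the NF-kB consensus, given by its name, the C/EBP letters TTGCNNAA, the STAT letters TTCNNNGAA and the AP-1 letters TGANTCA. The FOXO forkhead factors were searched as GTAAACA. The ETS family, to which ELF3 belongs, was searched as AGGAAG. The box that positions the polymerase was searched as TATAAA.
LCN2: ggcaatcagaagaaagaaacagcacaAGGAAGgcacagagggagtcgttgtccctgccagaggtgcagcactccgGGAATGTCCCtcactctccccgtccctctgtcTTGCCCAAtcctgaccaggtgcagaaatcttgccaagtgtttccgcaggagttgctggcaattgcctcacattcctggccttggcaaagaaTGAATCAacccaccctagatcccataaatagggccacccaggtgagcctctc
RNASE7: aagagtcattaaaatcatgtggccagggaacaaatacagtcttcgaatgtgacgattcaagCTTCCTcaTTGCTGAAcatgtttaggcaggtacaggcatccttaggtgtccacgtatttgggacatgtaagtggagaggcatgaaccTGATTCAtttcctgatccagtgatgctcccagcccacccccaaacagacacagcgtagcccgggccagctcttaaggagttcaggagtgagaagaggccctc
CAMP: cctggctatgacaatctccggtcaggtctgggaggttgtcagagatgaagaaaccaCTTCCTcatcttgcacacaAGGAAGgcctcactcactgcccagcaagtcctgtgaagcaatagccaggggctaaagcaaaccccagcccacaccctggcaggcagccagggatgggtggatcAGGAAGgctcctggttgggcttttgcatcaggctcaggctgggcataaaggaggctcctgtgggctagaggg
S100P: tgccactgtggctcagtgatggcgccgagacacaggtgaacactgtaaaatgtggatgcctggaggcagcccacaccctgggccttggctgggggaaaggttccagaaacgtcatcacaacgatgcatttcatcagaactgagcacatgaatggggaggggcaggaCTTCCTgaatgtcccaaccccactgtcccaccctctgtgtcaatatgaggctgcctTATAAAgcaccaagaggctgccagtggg

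The LCN2 window held a match to the NF-kB consensus on the minus strand, 175 to 166 bases before the start. It also held a C/EBP match 143 to 136 bases before the start, an AP-1 match at 52 to 46 and an ETS match at 224 to 219. RNASE7 shared 3 of these kinds of match, with C/EBP letters at 181 to 174, AP-1 letters at 102 to 96 and ETS letters at 189 to 184. At the N of the AP-1 letters, where any base was allowed, LCN2 had A and RNASE7 had T. CAMP held 3 ETS matches and none of the other motifs, and S100P held an ETS match and the TATA letters 28 to 23 bases before its start. No marked matches overlapped, and no window held the STAT or FOXO letters. Over 35114 promoters of the same length, 9.96% held the NF-kB consensus, 9.05% the C/EBP letters, 6.57% the AP-1 letters, 28.7% the ETS letters and 10.7% the TATA letters. The STAT letters stood in 6.57% and the FOXO letters in 2.98%. These matches describe letters and do not show that a factor binds there. The RefSeq start lies inside the gene as the deposited table bounds it, by 382 bases for LCN2, 136 for RNASE7, 148 for CAMP and 809 for S100P, so the windows of LCN2 and S100P fall wholly inside those bounds.

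**Figure D1:**
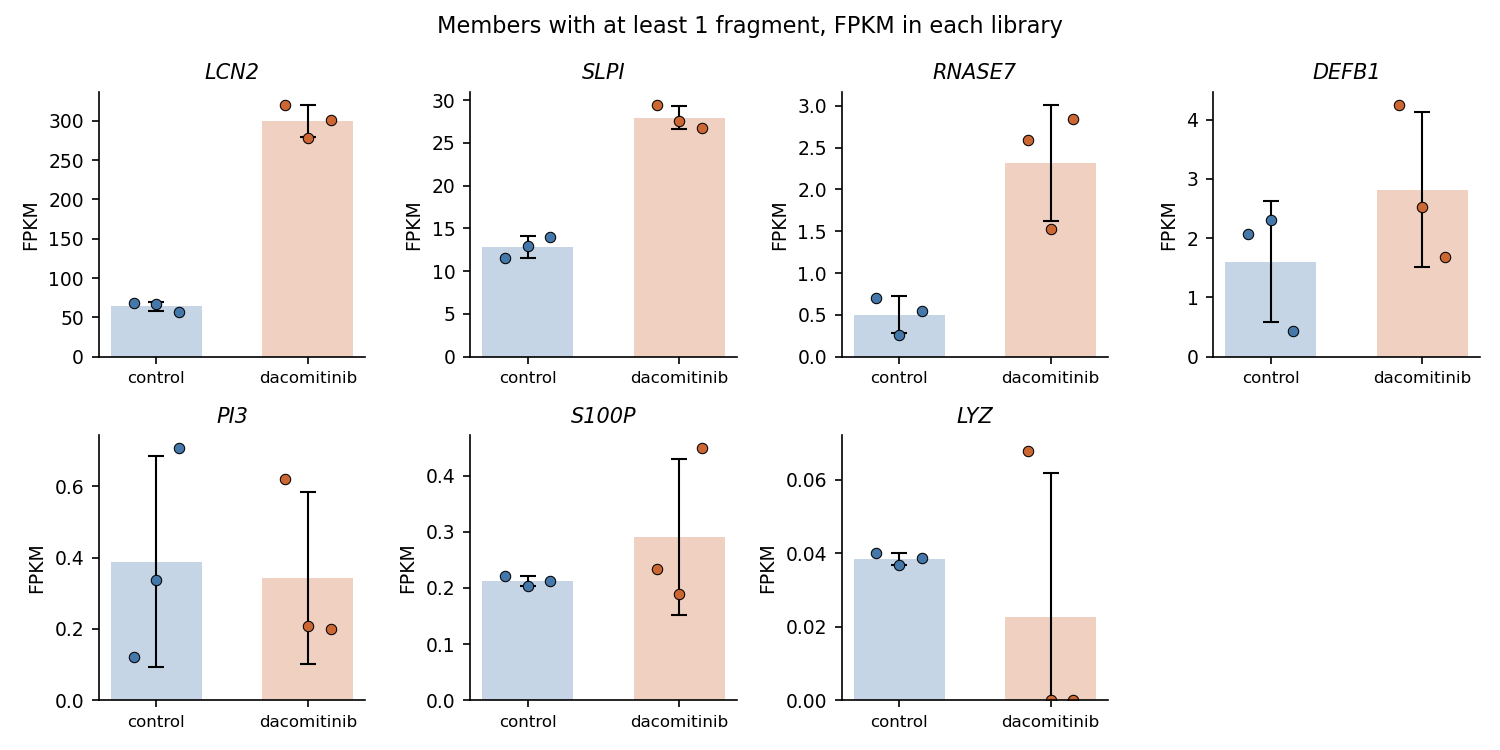
FPKM of the 7 members with at least 1 fragment, in 3 control (blue) and 3 dacomitinib (orange) libraries; each panel has its own linear axis from 0, points are libraries, bars are means and whiskers are SD. LCN2, SLPI and RNASE7 do not overlap between the groups, while DEFB1, PI3, S100P and LYZ do.

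LCN2 encodes lipocalin 2, which binds the siderophores that bacteria use to take up iron (ENSG00000148346, chromosome 9, 128149071 to 128153455, GRCh38). Controls 1, 2 and 3 had 68.4, 66.4 and 56.6 FPKM, and the dacomitinib libraries had 319.7, 278.5 and 301 FPKM. All treated libraries lay above all controls, and the gap between the groups was far larger than the spread within either. The difference was 2.22 on the log2(FPKM + 1) scale (SE 0.09, limma adjusted p = 3.95e-06), and the treated mean was 4.70 times the control mean. Ranked by this difference LCN2 was number 46 among the 13748 tested genes. By level it moved from rank 529 among tested genes in controls to rank 64 with the drug. It rested on 1330 to 1636 fragments in each control and 7383 to 8547 in each treated library, the best covered of the members. Its share of all fragments on genes was 0.00863% to 0.0103% in controls and 0.0487% to 0.0534% with dacomitinib. This share divides by each library's own fragment sum in place of the deposited scaling. LCN2 is also a granule protein of neutrophils, and the 9 neutrophil markers summed to 1.02 to 1.45 FPKM in controls and 1.70 to 1.77 FPKM with the drug. MPO, FCGR3B, ELANE and PRTN3 among them were at 0 in every library, and CXCR2, the marker above the expression limit, differed by 0.04 (SE 0.15) and was not called. CD177 had 5, 0 and 8 fragments in controls and 15, 22 and 10 with the drug, without overlap. It was not called without the expression limit (limma adjusted p = 0.133). CEACAM8 had 2 fragments in the controls together and 9 in the treated libraries, AZU1 had 0 and 10, and CSF3R had 1 and 2. In a bulk sample, more RNA per cell and more cells that make it cannot be told apart.

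SLPI, the secretory leukocyte peptidase inhibitor, blocks neutrophil elastase and cathepsin G and is itself antimicrobial (ENSG00000124107, chromosome 20, 45252239 to 45254564, minus strand). Its level was 11.5, 12.9 and 14.0 FPKM in controls 1, 2 and 3 and 29.5, 27.6 and 26.8 FPKM in the treated libraries. The groups did not overlap, and the lowest treated library stood well above the highest control. SLPI rose by 1.07 (SE 0.08, limma adjusted p = 4.75e-05), from 12.8 ± 1.28 to 28.0 ± 1.38 FPKM (SD, n = 3), a ratio of means of 2.18.

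Within a library, LCN2 and SLPI can be set against each other without any scaling between libraries. The ratio of their FPKM was 5.95, 5.13 and 4.03 in controls 1, 2 and 3 and 10.8, 10.1 and 11.2 in the dacomitinib libraries. LCN2 thus gained on SLPI in every treated library, and the ratios did not overlap. With 3 libraries a group an exact permutation test cannot go below p = 0.1, so the ratio is given without a test. LCN2 made up 79.0% to 82.7% of the summed FPKM of the 4 tested members in controls and 89.8% to 90.6% with the drug.

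PI3 encodes elafin, an elastase inhibitor with the same whey acidic protein (WAP) core as SLPI, and lies 75.7 kb from SLPI on chromosome 20 (ENSG00000124102, 45174876 to 45176544). It had 1, 3 and 6 fragments in controls 1, 2 and 3 and 6, 2 and 2 in the treated libraries, or 0.122, 0.337 and 0.707 FPKM and 0.622, 0.209 and 0.199 FPKM. The groups overlapped, and both held 10 fragments in all. PI3 was below the expression limit, and without that limit the difference was -0.04 (SE 0.20, limma adjusted p = 0.899). At about 10 fragments a group a moderate change was not detectable. PI3 and SLPI, neighbours with a shared protein fold, were thus at very different levels in both groups, 0.389 ± 0.296 against 12.8 ± 1.28 FPKM in controls.

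RNASE7 encodes a secreted ribonuclease with broad antimicrobial action in the outer epidermis (ENSG00000165799, chromosome 14, 21042226 to 21044234, plus strand). It had 0.707, 0.260 and 0.544 FPKM in controls and 2.59, 1.53 and 2.84 FPKM with dacomitinib, from 15, 6 and 12 fragments and 65, 38 and 74 fragments. The groups did not overlap, with the second treated library nearest to the controls. RNASE7 rose by 1.13 (SE 0.21, limma adjusted p = 0.00338), and its treated mean was 4.60 times the control mean of 0.504 ± 0.226 FPKM. It passed the expression limit through the treated group alone, so the gene had to differ to be tested. Without that limit its adjusted p was 0.0118, where 26.5% of the 32812 genes then tested were called and 12.6% were called higher. The size of the rise depended on the scale, with 2.00 for TPM, 2.04 for a pseudocount of 0.1, 2.23 for limma-voom on fragments and 0.97 after quantile normalization, all called. The ratio of LCN2 to RNASE7 was 96.7, 256 and 104 in controls and 123, 182 and 106 in the treated libraries, so unlike the ratio to SLPI it overlapped between the groups. The gene lies inside the bounds of NDRG2, a protein-coding gene on the opposite strand. No source used here says that counting kept the strand, and whether their exons overlap was not checked. Reads from any shared exon bases could have come from either gene. NDRG2 had 2.43 ± 0.270 FPKM in controls and 2.89 ± 0.282 with the drug (log2 difference 0.18, SE 0.10, limma adjusted p = 0.156). The part of NDRG2 reads in the rise of RNASE7 was not tested.

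**Figure D2:**
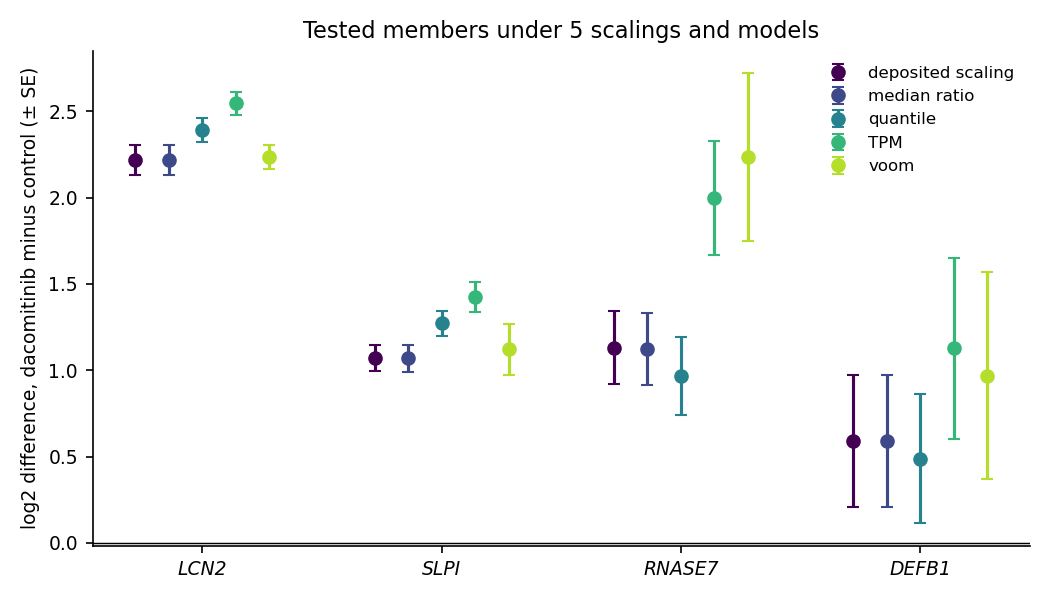
Log2 difference (dacomitinib minus control) with SE for the 4 tested members, under the deposited scaling, median-ratio scaling, quantile normalization and TPM (limma on log2 values plus 1) and under limma-voom on recovered fragments. LCN2 lies between 2.22 and 2.55 and SLPI between 1.07 and 1.42, while RNASE7 spans 0.97 to 2.23 and DEFB1 has the widest errors.

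Of the beta-defensins, DEFB1, which epithelia make constantly (ENSG00000164825, chromosome 8, 6870575 to 6878022), was the one with measurable RNA. It had 2.07, 2.31 and 0.427 FPKM in controls, from 14, 17 and 3 fragments, and 4.25, 2.52 and 1.68 FPKM with the drug, from 34, 20 and 14 fragments. The third control was far below the other controls, and the third treated library lay below the first 2 controls, so the groups overlapped. The difference of 0.59 (SE 0.38) did not pass (limma adjusted p = 0.222). It was 0.21 without the third control and 0.33 without the first treated library, with limma adjusted p-values of 0.568 and 0.507, and 1.13 with TPM, where it did not pass either (limma adjusted p = 0.101).

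DEFB4A and DEFB103A encode the beta-defensins that keratinocytes induce on infection or injury, and both were at 0 fragments in every library. So were their copies DEFB4B and DEFB103B. The coding sequence of DEFB4A matched that of DEFB4B at 194 of 195 bases, and those of DEFB103A and DEFB103B were identical over 204 bases. Reads from such copies map to more than a single place. All deposited values were whole fragments, and how the authors treated reads with several places is not given in the sources used here, so a count of 0 sets no limit on these 4 genes by itself. If only uniquely mapped reads were counted, reads from these near-identical stretches would be lost, so no FPKM limit is given for these genes. For a gene whose reads map to a single place, 0 fragments allow up to 3 per library, for counting error only.

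CAMP, the precursor of the cathelicidin peptide (ENSG00000164047, chromosome 3, 48223347 to 48225491), also had 0 fragments in all 6 libraries, which allows up to 0.231 to 0.284 FPKM per library. LYZ, which cleaves bacterial cell walls (ENSG00000090382, chromosome 12, 69348341 to 69354234), had 1 fragment in each control and 2, 0 and 0 in the treated libraries. Both genes are abundant in leukocytes. S100P, an extracellular ligand of the receptor AGER (ENSG00000163993, chromosome 4, 6693069 to 6697170), had 4, 4 and 4 fragments in controls and 5, 4 and 10 with dacomitinib. Its level was 0.212 ± 0.00905 FPKM in controls and 0.290 ± 0.139 FPKM with the drug (SD, n = 3). The third treated library was the high value, and without the expression limit the difference was 0.08 (SE 0.09, limma adjusted p = 0.548).

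Of 41 genes for other secreted antimicrobial proteins outside the epidermal differentiation complex, 8 were tested and all 8 were called higher, with a median of 1.36 (2.39 with TPM). This count is a description only, since 4 of the 8 had a control mean under 1 FPKM and passed the expression limit through the treated group, and 25.4% of all tested genes were called higher. Another 13 had some fragments but stayed below the limit, and 20 were at 0 in every library, among them the alpha-defensins DEFA1, DEFA3, DEFA4 and DEFA5, the sweat peptide DCD, and LTF and BPI, proteins of neutrophil granules. Of the genes above the limit in both groups, ADM, a peptide hormone with antimicrobial action, rose from 9.13 ± 1.28 to 16.4 ± 1.36 FPKM. LEAP2, a small cationic peptide, rose from 1.88 ± 0.267 to 3.24 ± 0.435 FPKM, and RARRES2, the precursor of chemerin, from 1.12 ± 0.256 to 1.85 ± 0.166 FPKM (limma adjusted p = 0.0291). Without the expression limit RARRES2 was not called (limma adjusted p = 0.0706). That left 7 of the list called higher, where 12.6% of the 32812 genes then tested were. Of the list's genes then also tested, CCL20 and RNASE6 had differences of -0.05 and -0.03 and were not called. ADM, LEAP2, RARRES2, CCL20, RNASE6, WFDC2, WFDC3, WFDC5, WFDC10A and WFDC12 are named after their values were seen.

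Of these 8 genes, 4 belong to the WAP domain genes that share a region of chromosome 20 with SLPI. WFDC10B, 430 kb from SLPI, had 0.112, 0.103 and 0.216 FPKM in controls and 3.61, 4.88 and 4.20 FPKM with dacomitinib (log2 difference 2.19, SE 0.13, limma adjusted p = 2.44e-05). WFDC13, 447 kb away, had 2 fragments in the controls together and 163 in the treated libraries, and reached 2.35 ± 0.486 FPKM. The bounds of WFDC10B and WFDC13 overlap on opposite strands, and reads from any shared exon bases could have come from either gene. Overlap of their exons was not checked. WFDC3, 493 kb away, had 0.127 ± 0.170 FPKM in controls and 1.92 ± 0.596 with the drug (log2 difference 1.37, SE 0.21). WFDC2, an abundant secretory WAP protein of epithelia 215 kb from SLPI, had 1.07, 1.50 and 0.541 FPKM in controls and 5.88, 3.62 and 3.12 FPKM in the treated libraries (log2 difference 1.34, SE 0.25, limma adjusted p = 0.00327). WFDC10B, WFDC13 and WFDC3 had control means under 1 FPKM and passed the expression limit through the treated group, so they had to differ to be tested. Without that limit their limma adjusted p-values were 0.000155, 0.000645 and 0.00424, and that of WFDC2 was 0.0124. On the other side of SLPI, PI3 had 10 fragments in each group, WFDC5 had 4 in the third control, 7 in the third treated library and 0 in the other libraries, and WFDC12 was at 0 throughout. WFDC10A, which lies between WFDC2 and WFDC10B at 375 kb from SLPI, was also at 0 in every library. BPIFB1, a secreted protein of the airway defence family and also on chromosome 20, had 14 fragments in the controls together and 327 in the treated libraries, and rose to 2.08 ± 0.482 FPKM. BPIFB1 also had a control mean under 1 FPKM and passed the expression limit through the treated group. Without that limit its limma adjusted p was 0.00132.

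**Figure D3:**
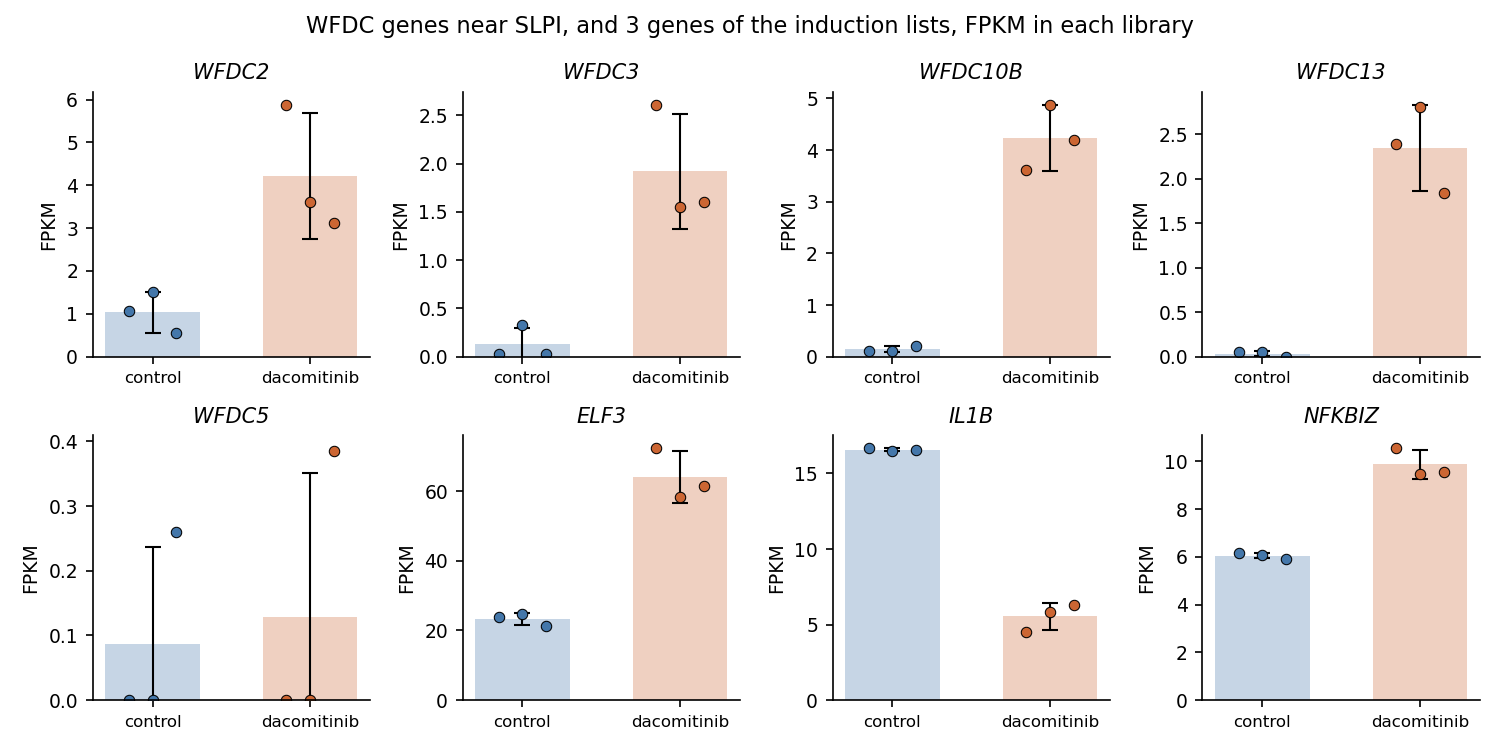
FPKM of 5 WFDC genes near SLPI and of ELF3, IL1B and NFKBIZ in 3 control (blue) and 3 dacomitinib (orange) libraries; each panel has its own linear axis from 0, points are libraries, bars are means and whiskers are SD. WFDC2, WFDC3, WFDC10B, WFDC13, ELF3 and NFKBIZ lie higher in all treated libraries, IL1B lies lower, and WFDC5 is at 0 in 4 of 6 libraries.

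The antimicrobial genes inside the epidermal differentiation complex were scarcely expressed apart from a pair. Of 7, 2 were tested and both were called higher, where 25.4% of all tested genes were called higher (42% with TPM). S100A7, psoriasin, had 2.90, 0.968 and 0.761 FPKM in controls and 12.6, 8.21 and 10.2 FPKM with dacomitinib (log2 difference 2.23, SE 0.31, limma adjusted p = 0.000905). S100A9, a subunit of calprotectin, rose from 8.75 ± 0.666 to 13.4 ± 2.21 FPKM. Its partner S100A8 had 8 fragments in the controls together and 8 in the treated libraries.

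Of 16 genes for ligands that induce antimicrobial genes, 5 were tested and all 5 were called lower, where 34.8% of all tested genes were called lower. Their median was -1.43. With TPM 3 of the 5 were called lower and 0 higher, against 19.8% and 42% of all tested genes. IL1A had 12.6, 13.6 and 13.0 FPKM in controls and 2.87, 4.99 and 3.71 FPKM with the drug (log2 difference -1.56, SE 0.15, limma adjusted p = 0.000178). IL1B, the other interleukin of this list above the limit, fell from 16.6 ± 0.102 to 5.54 ± 0.915 FPKM. AREG, a ligand of EGFR itself, fell from 8.06 ± 1.30 to 1.87 ± 0.477 FPKM. The remaining tested ligands, TGFA and HBEGF, also bind EGFR and fell less, with log2 differences of -0.29 (SE 0.06) and -0.29 (SE 0.07). Both lost their call with TPM and after quantile normalization. IL17A, IL17F, IL22, IL36A, IL36B and IFNG were at 0 in every library, and the other 5 ligands below the limit had some fragments. Among these IL6, chosen after its value was seen, had 7, 5 and 5 fragments in controls and 34, 28 and 30 with dacomitinib, with no overlap. Without the expression limit IL6 was called higher, by 0.66 (SE 0.10, limma adjusted p = 0.00513), the 1 ligand so called. Of the 32812 genes then tested, 12.6% were called higher.

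Of 20 receptors for cytokines and microbial patterns, 12 were tested, with a median of 0.14 (0.46 with TPM). Of these, 5 were called higher and 1 lower, where 25.4% and 34.8% of all tested genes were. With TPM 9 were called higher and 0 lower, against 42% and 19.8% of all tested genes. TLR3, which senses double-stranded RNA, rose from 6.09 ± 0.419 to 10.5 ± 0.304 FPKM. IL6ST, the shared signalling chain of the interleukin 6 family, rose from 20.7 ± 1.56 to 32.6 ± 0.459 FPKM, and the interferon receptor chain IFNGR1 from 22.4 ± 1.72 to 32.7 ± 5.11 FPKM. NOD1, a cytosolic sensor of bacterial cell wall fragments, fell from 3.50 ± 0.334 to 2.23 ± 0.272 FPKM, a call lost with TPM (limma adjusted p = 0.0590, 0.000142 to 0.0590 over its alternatives). The chains of the IL17 receptor, IL17RA and IL17RC, differed by 0.10 (SE 0.08) and 0.14 (SE 0.06) and were not called on the deposited scale. Without the expression limit 5 receptors were called higher and 2 lower, where 12.6% and 13.9% of the 32812 genes then tested were. IL1RL2, chosen after its value was seen, was then called lower, by -0.49 (SE 0.11, limma adjusted p = 0.0189). It had 25, 13 and 17 fragments in controls and 5, 1 and 0 with dacomitinib.

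Of 30 adaptors and transcription factors, 28 were tested, with 10 higher and 7 lower (14 and 5 with TPM) and a median of -0.02 (0.29 with TPM). Of all tested genes 25.4% were called higher and 34.8% lower (42% and 19.8% with TPM). Without the first dacomitinib library 11 were called lower, as were 4647 of all 13748 tested genes. ELF3, an epithelial ETS factor, had 23.8, 24.8 and 21.3 FPKM in controls and 72.3, 58.3 and 61.3 FPKM with dacomitinib (log2 difference 1.42, SE 0.09, limma adjusted p = 3.40e-05). The bounds of ELF3 overlap those of the antisense gene ELF3-AS1, which had 737 fragments in the controls together and 2241 in the treated libraries. Reads from any shared exon bases could have come from either gene, and overlap of their exons was not checked. SOCS3, a feedback inhibitor of STAT signalling, rose from 1.84 ± 0.240 to 3.58 ± 0.188 FPKM, and the adaptor MYD88 from 14.3 ± 1.66 to 23.3 ± 1.42 FPKM. IRAK1, the kinase that acts after MYD88, fell from 77.4 ± 12.5 to 35.9 ± 0.838 FPKM, and VDR, the vitamin D receptor through which CAMP is induced, from 15.2 ± 0.368 to 7.45 ± 0.623 FPKM. CEBPA fell from 3.09 ± 0.598 to 1.21 ± 0.453 FPKM. NFKBIZ, the NF-kB cofactor needed for induction of LCN2 and chosen here after its value was seen, had 6.16, 6.08 and 5.92 FPKM in controls and 10.6, 9.49 and 9.57 FPKM with the drug (log2 difference 0.62, SE 0.06, limma adjusted p = 0.000135). NFKB1, an NF-kB subunit likewise chosen after its value was seen, had 19.9, 18.9 and 20.0 FPKM in controls and 11.5, 11.0 and 11.3 FPKM with the drug, and fell (log2 difference -0.75, SE 0.05, limma adjusted p = 2.31e-05).

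**Figure D4:**
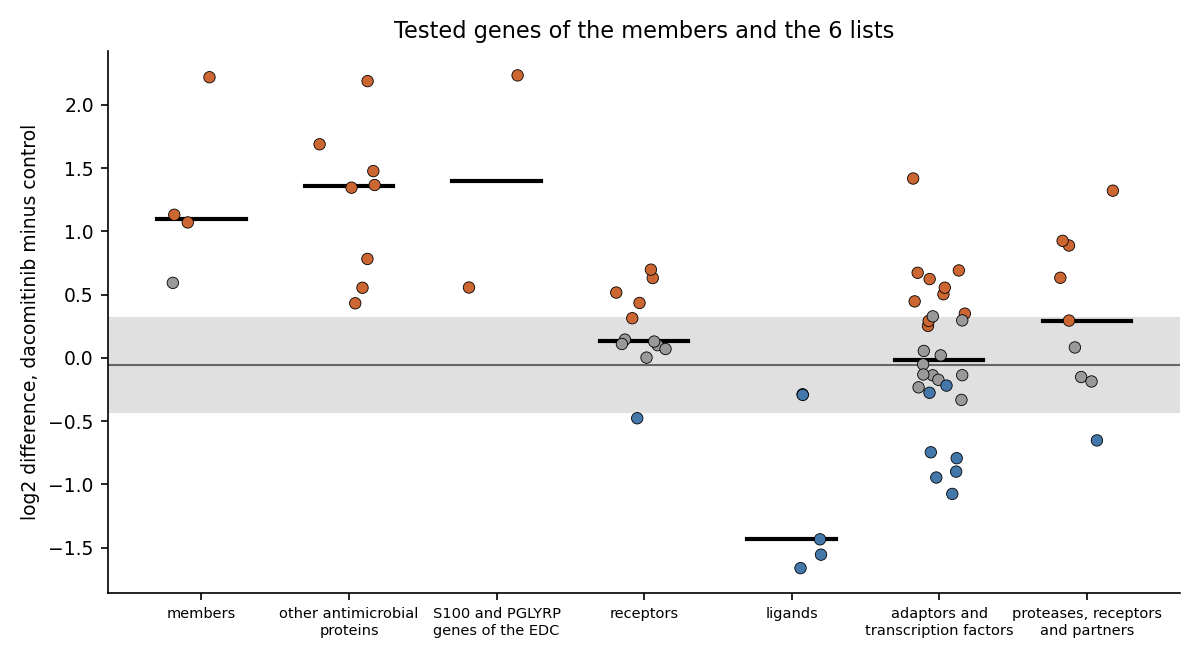
Log2 difference (dacomitinib minus control) of each tested gene among the members and the 6 lists; orange points were called higher, blue lower and grey not called, black bars are medians, and the grey band spans the lower to upper quartile of all tested genes, -0.43 to 0.31, around their median of -0.06. The tested ligands all lie below 0, and the tested antimicrobial genes all lie above 0. Several of these antimicrobial genes, RNASE7 among them, passed the expression limit through the treated group alone. EDC is the epidermal differentiation complex.

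Of 21 proteases, receptors and partners of the members, 9 were tested, with 5 higher and 1 lower (6 and 1 with TPM) and a median of 0.29 (0.61 with TPM). The shares over all tested genes were 25.4% higher and 34.8% lower (42% and 19.8% with TPM). Without the third control 2 were called lower, as were 4462 of all 13748 tested genes. SERPINA1, an inhibitor of neutrophil elastase like SLPI and PI3, rose from 0.233 ± 0.125 to 2.07 ± 0.147 FPKM. TGM1, a transglutaminase of the cornified envelope, rose from 0.545 ± 0.0752 to 1.97 ± 0.568 FPKM, and the epidermal protease KLK8 from 9.71 ± 1.43 to 18.7 ± 1.44 FPKM. SERPINA1 and TGM1 passed the expression limit through the treated group alone. RNH1, the cytosolic inhibitor of secreted ribonucleases such as RNASE7, had 18.2, 16.9 and 17.0 FPKM in controls and 11.2, 10.8 and 10.1 FPKM with dacomitinib (log2 difference -0.65, SE 0.06, limma adjusted p = 0.000107). RNASE7 and RNH1 thus moved in opposite directions. ELANE and PRTN3, proteases that SLPI or PI3 inhibit, MMP9, which LCN2 binds, and CCR6 and FPR2, receptors for defensins and for the cathelicidin peptide, were at 0 in every library.

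Libraries held 14960650 to 16179273 fragments on genes, and the correlation across tested genes was 0.970 to 0.979 between libraries of a group and 0.870 to 0.888 between groups (genes are not independent replicates). All 11 keratinocyte markers were tested, and their summed level was 1322 to 1396 FPKM in controls and 1075 to 1261 FPKM with dacomitinib. Of these markers 5 were called higher and 4 lower, where 25.4% and 34.8% of all tested genes were. KRT16, KRT17, PERP, DSG3 and CDH1 were higher, and KRT5, KRT14, KRT6A and DSP were lower. KRT16 had a control mean of 0.731 FPKM and passed the expression limit through the treated group alone. LYZ is also a product of macrophages. The 11 monocyte and macrophage markers summed to 0.607 to 1.52 FPKM and 0.956 to 2.03 FPKM, with TYROBP, LST1, AIF1 and MRC1 at 0. The 7 sweat gland markers had 2 fragments in the controls together and 1 in the treated libraries, with DCD, SCGB2A2, SCGB1D2 and CA6 at 0.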

How the data were processed

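RNA of 3 control and 3 dacomitinib samples was sequenced, and the authors deposited FPKM for 58735 genes with gene lengths, on GRCh38 per the submitters' processing notes. The notes name CASAVA, fastp, HISAT2, featureCounts and DESeq2 1.20.0, without roles. GENCODE release 29 holds every gene identifier, 58724 of them with matching start, end and strand. FPKM times gene length gave whole fragments for 100% of values above 0 (tolerance 0.01), which gave the fragments. The library size in the deposited FPKM was 0.952 ± 0.00449 times the fragment sum in controls and 1.07 ± 0.0244 times in treated libraries (SD, n = 3), so libraries had been scaled, how is not given in the sources used here.

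FPKM are not counts, so limma 3.58.1 in R 4.3.3 was fitted with a mean-variance trend to log2(FPKM + 1) of genes whose FPKM averaged 1 or more, with adjustment over all tested genes, two-sided. Other pseudocounts, filters, scalings and models, a block on replicate numbers and leaving out each library were tried, and the fit was tested on simulated data. Named genes are the 10 members and, in each of the 6 surrounding lists, the 3 strongest called rises and the 3 strongest called falls, where there were as many. Other genes named in the text were chosen after their values were seen. Members and lists were chosen with earlier results of these data known. Of the 10 members, 6 fell below the filter. Intervals from a count of 0 cover counting error only.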

Additional observations from a re-analysis of the deposited data

How the results depend on the processing

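Among the values of the named genes under 18 alternatives, 502 of 504 kept their side of the threshold and 0 called values changed sign. LCN2 ranged from 2.14 to 2.55, SLPI from 1.00 to 1.42 and RNASE7 from 0.97 to 2.23, all called wherever tested, and RNASE7 was not tested at a mean of at least 5 FPKM, which left 2 members called higher. NOD1 lost its call with TPM, and LYZ gained a call without the first treated library (difference -0.05, adjusted p = 0.0318), where 1 fragment in each control met 0 in the 2 others. Over all tested genes, 3493 higher and 4778 lower became 5779 and 2721 with TPM, and higher calls fell to 1946 at a mean of at least 5 FPKM, which tests fewer genes. Calls in the 6 lists, 30 higher and 14 lower, became 39 and 9 with TPM. The cause of these shifts with TPM was not tested. With a replicate block the members' counts stayed at 3 and 0, and the difference of LCN2 was 2.22 (adjusted p = 0.000139). Same-numbered libraries showed no shared deviation (correlations of 0.03, -0.02 and 0.04 across genes). This cannot exclude that they were handled together, and no label says what the numbers share. Depth limits what can be said of PI3, S100P and LYZ, which had at most 10 fragments in any library.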

Other observations

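The secreted ribonuclease genes around RNASE7 on chromosome 14 had few fragments. RNASE8, 13.6 kb from RNASE7 and like it inside NDRG2, had 0 fragments in the controls and 5, 1 and 13 with dacomitinib. Its coding sequence was 85.6% identical to that of RNASE7, so some reads could have been divided between the pair. RNASE2, a product of eosinophils, had 2 fragments in the controls together and 17 in the treated libraries, RNASE4 had 2 and 17, and RNASE1 had 1 and 9. ANG, angiogenin, had 37 and 69 fragments, with the groups overlapping in FPKM. The bounds of ANG lie inside those of RNASE4 on the same strand, and overlap of their exons was not checked. Reads from any shared exon bases could have come from either gene. RNASE3 had 0 and 3 fragments, and RNASE6 had 1 and 0. All 7 were below the expression limit of the comparison and were chosen after their values were seen.

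Among the other low genes, PLA2G2A, a secreted phospholipase that attacks bacterial membranes, had 6, 14 and 7 fragments in controls and 54, 25 and 18 with the drug. PGLYRP4, which recognises bacterial peptidoglycan, had 9, 8 and 2 fragments in controls and 34, 36 and 29 with dacomitinib. CYP27B1, which activates vitamin D, had 54, 70 and 47 fragments in controls and 29, 51 and 41 in the treated libraries. These 3 genes were likewise chosen after their values were seen. Without the expression limit PGLYRP4 was called higher, by 0.65 (SE 0.12, limma adjusted p = 0.0112), while PLA2G2A and CYP27B1 were not called (limma adjusted p = 0.138 and 0.196).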
